A study of Mus musculus with 8 samples.

Results

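The genes described here are those of the insulin-like growth factor (IGF) binding proteins Igfbp1 to Igfbp7, the ligand Igf1 and the receptors Igf1r and Insr, 10 of the 19937 genes measured. They were chosen by gene family, with the results of the comparison below already known, and each is represented by the probe set of its symbol with the highest mean over all arrays. All 10 were measured, with no filter on low values. Differences between the groups are therefore given as a description of these genes, and the p-values printed for them are no independent evidence. The shMKRN1 group held 4 arrays (numbered 2, 4, 6 and 8), from R1 cells transfected with a pLKO.1 plasmid that encodes a hairpin against MKRN1. The shGFP group held 4 arrays (numbered 1, 3, 5 and 7), from R1 cells that received pLKO.1 with a hairpin against GFP, a jellyfish gene. R1 cells are embryonic stem cells of a male mouse blastocyst (inner cell mass, strains 129X1 x 129S1), and both groups were grown with LIF and 15% serum and selected for 4 days in 2 µg/mL puromycin before lysis on day 6 after transfection. The plasmids were transfected transiently, each group was a resistant population and not a clone, and a single hairpin per target was used. No label tells whether each array had its own transfection, so every p-value rests on a spread that may be technical.

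IGF1 and IGF2 are secreted growth factors that bind the IGF1 receptor, and insulin and IGF2 also act through the insulin receptor. Both receptors are tyrosine kinases that recruit insulin receptor substrate proteins and pass the signal to PI3 kinase, AKT and mTORC1. IGF-binding proteins hold IGFs outside the cell, where they can block ligand from its receptor, prolong its life or release it after cleavage by proteases. In mouse embryonic stem cells, insulin and IGF signalling through PI3 kinase is known to favour growth and self-renewal.

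Mkrn1, the targeted gene, had log2 levels of 9.81, 9.81, 9.86 and 9.88 in shMKRN1, against 10.45, 10.45, 10.51 and 10.34 in shGFP. It was lower in all 4 shMKRN1 arrays (exact two-sided permutation p = 0.0286, the smallest that 4 against 4 arrays allow), and 66.2% of the shGFP level remained (95% confidence interval 61.0% to 71.7%). Arrays shMKRN1 8 (7.46) and shGFP 7 (23.2) stood apart from the others of their groups (-15.2 to -6.02 in shMKRN1 and -3.45 to 6.2 in shGFP) on the leading principal component, and the results were also computed without this pair. All 12 markers of embryonic stem cells lay above the level below which 95% of 1190 olfactory and vomeronasal receptor genes fell (6.50 on the log2 scale), which is used here as a guide to silent genes. Among them Nanog, a pluripotency factor gene, was higher in shMKRN1 (log2 difference 0.25, SE 0.050; limma adjusted p = 0.0256), a call lost without shMKRN1 2, 4 or 6 or shGFP 3 (adjusted p of 0.0679 to 0.0974). No other of the 12 had a limma adjusted p under 0.05, and 5 of the 12 differences were positive (median -0.0054). The mean log2 value of the 12 markers was 11.39 to 11.46 in shMKRN1, against 11.38 to 11.44 in shGFP, so the groups overlapped. Over all 19937 genes, 4.49% had a limma adjusted p under 0.05, 3.66% higher and 0.838% lower in shMKRN1. These were 729 and 167 genes, against 806 and 290 after quantile normalization and 875 and 125 after median centring.

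Of the 10 genes, 4 passed that threshold, beside 4.49% of all genes. Transcripts of 3 binding proteins, Igfbp3, Igfbp2 and Igfbp4, were higher in shMKRN1, and that of Igfbp7 was lower. The groups did not overlap for these 4 and for Igf1, which is 5 of 10 genes, beside 14.1% of all genes. The median difference of the 10 genes was 0.06 on the log2 scale, beside 0.01 for all genes. The contrast that gives these counts was known when the family was chosen, and nothing is read from them. Because whole populations were lysed, fewer cells of a type and less RNA per cell cannot be told apart.

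Igfbp3 encodes a main IGF carrier of blood plasma, which many cell types also secrete. Its log2 levels were 10.88, 10.78, 10.70 and 10.76 in shMKRN1, against 9.71, 9.94, 10.20 and 9.99 in shGFP. Every shMKRN1 array lay above every shGFP array, and the shMKRN1 values were the closer together (SD 0.077, against 0.20 in shGFP). The transcript was 1.76-fold higher (95% confidence interval 1.53 to 2.04; log2 difference 0.82, SE 0.094; limma adjusted p = 0.0021), a difference that ranked 24 among the increases of all genes. The difference was 0.74 without shGFP 1 and 0.90 without shGFP 5, the lowest and highest of the 8 fits that left out 1 array, and it passed the threshold each time an array was left out.

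Igfbp2 encodes a binding protein that is abundant in the early embryo and in fetal tissues. Its log2 levels were 10.52, 10.59, 10.59 and 10.60 in shMKRN1, against 10.07, 10.07, 10.20 and 10.12 in shGFP. These were the tightest groups among the 4 genes that passed (SD 0.038 and 0.061), and they lay clearly apart. The transcript was 1.37-fold higher (1.27 to 1.48; log2 difference 0.46, SE 0.051; limma adjusted p = 0.00175). The call held without each array in turn.

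Igfbp4 encodes a binding protein that is known mainly as an inhibitor of IGF action and as the substrate of the protease PAPP-A. Its log2 levels were 8.76, 8.51, 8.37 and 8.35 in shMKRN1, against 8.21, 8.04, 8.04 and 7.81 in shGFP. The groups were apart by a small gap, between shMKRN1 8 and shGFP 1. The transcript was 1.39-fold higher (1.18 to 1.63; log2 difference 0.47, SE 0.11; limma adjusted p = 0.0348). This call was the weakest of the 4: it held without shMKRN1 8 or without shGFP 1, and was lost without any other single array (adjusted p of 0.0565 to 0.0959).

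Igfbp7 encodes a secreted protein of the extracellular matrix and of vessel walls that binds IGFs with lower affinity than the other members and also binds insulin. Its log2 levels were 8.95, 8.94, 8.92 and 8.83 in shMKRN1, against 10.17, 9.81, 9.31 and 9.48 in shGFP. The shMKRN1 arrays agreed closely (SD 0.058), and the shGFP arrays were spread widely (SD 0.38), with shGFP 5 nearest to the shMKRN1 values. The transcript fell to 58.1% of the shGFP level in shMKRN1 (45.8% to 73.8%; log2 difference -0.78, SE 0.15; limma adjusted p = 0.0224), which ranked 6 among the decreases of all genes. The difference was -0.62 without shGFP 1 and -0.91 without shGFP 5. The call was lost without shMKRN1 2 (adjusted p = 0.0633), shMKRN1 4 (0.0574), shMKRN1 6 (0.0661) or shGFP 3 (0.0772). Without the pair shMKRN1 8 and shGFP 7, all 4 genes passed, with log2 differences of 0.45 (Igfbp2), 0.83 (Igfbp3), 0.45 (Igfbp4) and -0.82 (Igfbp7). Within shGFP, the array with the highest Igfbp7 value (shGFP 1) had the lowest Igfbp3 value. The array with the lowest Igfbp7 value (shGFP 5) had the highest Igfbp3 value. Igfbp2 was also highest in shGFP 5 (10.20), but Igfbp4 was highest in shGFP 1 (8.21), as Igfbp7 was. These orders rest on 4 arrays, were picked after the values were seen and were not tested.

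**Figure D1:**
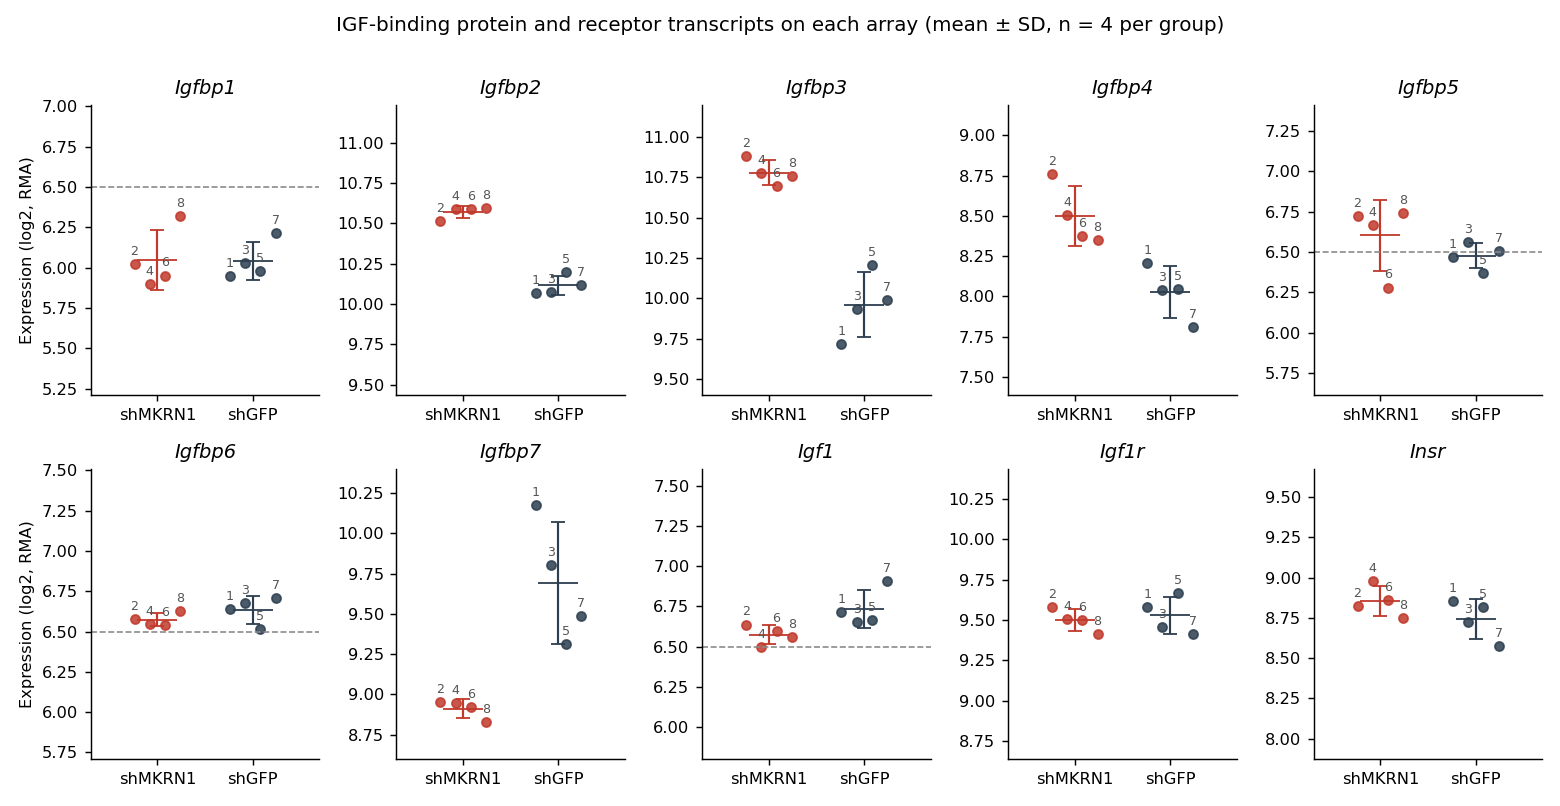
Log2 expression (RMA values, vertical axes of equal span) of the 10 genes on each array, with shMKRN1 left of shGFP. Points are arrays labelled by number, bars are the mean ± SD of 4 arrays, and the dashed line marks the level of 6.50 below which 95% of the olfactory and vomeronasal receptor genes lie. Igfbp2, Igfbp3 and Igfbp4 sit higher and Igfbp7 lower in every shMKRN1 array.

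The remaining binding protein genes lay near the level of silent genes. Igfbp1, whose product is a liver protein regulated by insulin, had log2 levels of 6.02, 5.90, 5.95 and 6.32 in shMKRN1, against 5.95, 6.03, 5.98 and 6.21 in shGFP. All 8 values were below 6.50, so Igfbp1 is not read as expressed, and a difference in it could not be assessed. Igfbp5, which encodes a binding protein of bone and muscle, had levels of 6.72, 6.67, 6.28 and 6.74 in shMKRN1, against 6.47, 6.56, 6.37 and 6.51 in shGFP. The groups overlapped, and array shMKRN1 6 lay below all others (log2 difference 0.13, 95% confidence interval -0.10 to 0.35; limma adjusted p = 0.561). The difference was 0.23 without shMKRN1 6 (adjusted p = 0.116) and 0.0062 with array weights. Igfbp6, whose product prefers IGF2 over IGF1, had levels of 6.54 to 6.63 in shMKRN1, against 6.51 to 6.71 in shGFP (log2 difference -0.06, -0.19 to 0.06; limma adjusted p = 0.624). Array background can understate differences at this level.

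The binding protein genes lie partly in pairs. In the RefSeq gene table, Igfbp2 and Igfbp5 are adjacent on chromosome 1, and Igfbp1 and Igfbp3 are adjacent on chromosome 11, with 0 annotated genes between the members of each pair. Igfbp2 and Igfbp3 passed the threshold, while their neighbours Igfbp5 and Igfbp1 lay at or near the level of silent genes. Whether the differences of the neighbours differ from each other was not tested.

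The sequence just upstream of the annotated start is shown for the 4 genes that passed, since 3 of them were higher together and the fourth was lower. RefSeq promoter sequences of build GRCm38.p6 matched 9 of the 10 genes, all but Insr. Each line gives the 150 bases before the start, 5′ to 3′ on the strand of the gene. Capitals mark matches on either strand to TATAAA or to TATATA (core letters of a TATA box) and to GGGCGG (a GC box, the site known for SP1). The windows are chr11:7213924-7214073 on the minus strand for Igfbp3, chr1:72824330-72824479 on the plus strand for Igfbp2, chr11:99041094-99041243 on the plus strand for Igfbp4 and chr5:77408046-77408195 on the minus strand for Igfbp7. For Igfbp2 the first of its 2 annotated starts was used.
Igfbp3: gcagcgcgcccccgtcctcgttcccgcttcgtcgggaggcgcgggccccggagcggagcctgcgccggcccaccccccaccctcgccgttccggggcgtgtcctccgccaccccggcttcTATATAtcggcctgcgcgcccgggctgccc
Igfbp2: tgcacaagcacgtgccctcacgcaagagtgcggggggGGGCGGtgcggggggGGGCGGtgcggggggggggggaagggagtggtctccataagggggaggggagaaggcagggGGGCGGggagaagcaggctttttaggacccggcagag
Igfbp4: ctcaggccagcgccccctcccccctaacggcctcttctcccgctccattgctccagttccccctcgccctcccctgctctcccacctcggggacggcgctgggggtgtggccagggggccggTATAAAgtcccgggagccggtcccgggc
Igfbp7: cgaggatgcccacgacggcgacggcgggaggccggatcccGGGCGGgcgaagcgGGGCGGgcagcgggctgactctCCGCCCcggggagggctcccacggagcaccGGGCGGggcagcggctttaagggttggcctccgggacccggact

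Igfbp3 held TATATA beginning 30 bases before the start (position -30), and Igfbp4 held TATAAA at position -28. Of 27025 promoters in the table, 1 per gene, 8.08% held TATAAA and 3.21% held TATATA in this window. Igfbp2 held GGGCGG 3 times and Igfbp7 held it 4 times, and 29.0% of all promoters held it at least once. The windows of Igfbp3, Igfbp7, Igfbp4 and Igfbp2 contained 23, 21, 11 and 9 CG dinucleotides, beside a median of 4 (quartiles 1 and 11) over all promoters. At the second annotated start of Igfbp2, the window held none of the motifs searched and 6 CG dinucleotides. Members that did not pass held such features too. The window of Igf1r held 26 CG dinucleotides and GGGCGG 2 times, and that of Igfbp6 held TATAAA at position -148. Igfbp1, Igfbp5, Igfbp6 and Igf1 held 4, 5, 5 and 4 CG dinucleotides. The genes that were higher together shared none of the motifs searched in all 3 windows. A match is a description of these letters only.

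The ligand and the receptors did not pass the threshold. Igf1, which encodes the growth factor itself, had log2 levels of 6.64, 6.50, 6.59 and 6.56 in shMKRN1, against 6.72, 6.65, 6.66 and 6.91 in shGFP. The groups were separated by a very narrow gap close to the level of silent genes (log2 difference -0.16, 95% confidence interval -0.31 to -0.01; limma adjusted p = 0.21), and the difference was -0.10 without the pair shMKRN1 8 and shGFP 7. Igf1r, the main signalling receptor of the IGFs, had levels of 9.58, 9.51, 9.50 and 9.41 in shMKRN1, against 9.58, 9.46, 9.67 and 9.41 in shGFP. Its groups overlapped over nearly the whole range, and the interval of the difference (log2 -0.03, -0.18 to 0.12; limma adjusted p = 0.875) left 88.4% to 109% of the shGFP level as possible.

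Insr, the insulin receptor gene, had log2 levels of 8.82, 8.98, 8.86 and 8.75 in shMKRN1, against 8.85, 8.73, 8.82 and 8.57 in shGFP. The groups overlapped (log2 difference 0.11, 95% confidence interval -0.05 to 0.28; limma adjusted p = 0.469), and the difference was 0.055 without shGFP 7 and 0.07 without shMKRN1 4. Insr was the only one of the 10 genes with a further probe set, which had levels of 8.02 to 8.12 in shMKRN1, against 7.90 to 8.13 in shGFP (log2 difference 0.07, SE 0.061; limma adjusted p = 0.667 over every probe set). Both probe sets had the higher mean in shMKRN1. These differences were smaller than the SD of the shGFP arrays (0.12 and 0.099). They were larger than the SD of the shMKRN1 arrays (0.094 and 0.045).

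The other genes of the pathway were taken from 6 lists of textbook members, 52 of which were measured. Of these, 4 were higher and 1 was lower in shMKRN1, with a median difference of 0.02. In all 5 of 52 passed, beside 4.49% of all genes, and nothing particular to the pathway is read from so few. Ddit4, 1 of the 5, was known to be higher when the lists were written. Genes named below that did not pass were chosen after their values were seen.

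No gene passed among 4 ligands and other receptors by limma, and 1 of them, Igf2r, had an unadjusted p under 0.05, as 19.5% of all genes did. Igf2, the embryonic ligand, had a log2 level of 12.10 ± 0.17 in shMKRN1 and 12.20 ± 0.29 in shGFP (SD, n = 4 each; log2 difference -0.10, 95% confidence interval -0.41 to 0.21; limma adjusted p = 0.758). The sign of this difference turned without shGFP 1 (0.028). Igf2r, which encodes the receptor that clears IGF2, had a log2 difference of 0.12 (SE 0.051; limma adjusted p = 0.249). Its groups did not overlap, but the difference did not pass the threshold. Ins2 and Insrr, an insulin gene and the gene of an orphan receptor of the family, had means of 6.43 and 6.17 in shMKRN1, against 6.50 and 6.24 in shGFP, at or near the level of silent genes.

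No gene passed among 6 carriers, proteases and protease inhibitors by limma, and 2 had an unadjusted p under 0.05, beside the same 19.5%. Htra1, which encodes a secreted protease that cleaves IGF-binding proteins, had a log2 level of 8.81 ± 0.12 in shMKRN1 and 8.36 ± 0.25 in shGFP (SD, n = 4 each; log2 difference 0.44, SE 0.12; limma adjusted p = 0.0608). It lay just outside the threshold, with groups that did not overlap, and it passed under 6 of 9 other settings of the analysis. It passed in none of the 8 fits that left out 1 array (limma adjusted p of 0.0556 to 0.16). Stc2, whose product inhibits PAPP-A, differed by 0.20 (SE 0.065; limma adjusted p = 0.119), and passed under 1 of the 9 other settings. Stc2 passed in none of the 8 fits that left out 1 array (limma adjusted p of 0.124 to 0.26). Pappa, the gene of PAPP-A itself, had a mean of 6.60 in each group, near the level of silent genes (log2 difference -0.001). Of 4 further genes whose products carry an IGFBP domain, none passed by limma, and 1, Crim1, had an unadjusted p under 0.05 (log2 difference -0.38, SE 0.16; limma adjusted p = 0.205). The difference of Crim1 was -0.22 without shGFP 1.

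Among 10 receptor adaptors and their regulators, Irs4 was lower in shMKRN1 and none was higher, beside 0.838% of all genes lower and 3.66% higher. Irs4 encodes an insulin receptor substrate with a restricted range of tissues. Its log2 levels were 7.46, 7.22, 7.22 and 7.29 in shMKRN1, against 7.80, 7.71, 7.69 and 7.75 in shGFP. The groups lay well apart, and the transcript fell to 73.8% of the shGFP level (95% confidence interval 66.9% to 81.4%; log2 difference -0.44, SE 0.063; limma adjusted p = 0.00554). The more widely expressed Irs1 and Irs2 differed by 0.07 (-0.09 to 0.23) and -0.06 (-0.18 to 0.05) on the log2 scale, and neither passed.

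Of 9 genes of PI3 kinase and its lipid product, 3 were higher in shMKRN1 and none was lower. Of all genes, 3.66% were higher and 0.838% lower. The list is small, and nothing particular to it is read from this count. Inpp5d encodes SHIP1, a phosphatase that removes the 5-phosphate from the lipid made by PI3 kinase. Its log2 levels were 10.42, 10.31, 10.39 and 10.30 in shMKRN1, against 9.42, 9.62, 9.52 and 9.61 in shGFP. No value of a group came near the other group, and the transcript was 1.75-fold higher (95% confidence interval 1.60 to 1.92; log2 difference 0.81, SE 0.060; limma adjusted p = 0.000316). Inppl1 encodes SHIP2, the related phosphatase. It had levels of 9.71, 9.62, 9.66 and 9.65 in shMKRN1, against 9.40, 9.32, 9.39 and 9.37 in shGFP, and was 1.22-fold higher (1.14 to 1.32; limma adjusted p = 0.00911). Pik3r3, a regulatory subunit gene of PI3 kinase, had levels of 8.35, 8.32, 8.13 and 8.01 in shMKRN1, against 7.89, 7.79, 7.78 and 7.41 in shGFP. It was 1.40-fold higher (1.18 to 1.66; limma adjusted p = 0.0391), and this call held in 3 of the 8 fits that left out 1 array. It was lost without shMKRN1 2 (adjusted p = 0.115), shMKRN1 4 (0.11), shMKRN1 6 (0.0913), shGFP 3 (0.0911) or shGFP 5 (0.0662). The catalytic subunit gene Pik3ca differed by 0.25 (SE 0.076; limma adjusted p = 0.103) and did not pass, but did so under 3 of the 9 other settings. Pik3ca passed in none of the 8 fits that left out 1 array (limma adjusted p of 0.0927 to 0.235).

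Downstream, 1 of 19 genes of AKT, FOXO and mTORC1 passed, beside 4.49% of all genes. Ddit4, which encodes a stress-induced inhibitor of mTORC1, had log2 levels of 10.12, 10.10, 10.19 and 10.22 in shMKRN1, against 9.47, 9.49, 9.54 and 9.61 in shGFP. It was 1.55-fold higher (95% confidence interval 1.42 to 1.68; limma adjusted p = 0.000711). Foxo1, which encodes a transcription factor that AKT inhibits, had a log2 difference of -0.14 (SE 0.049; limma adjusted p = 0.15) and did not pass, but did so under 2 of the 9 other settings. Foxo1 passed in none of the 8 fits that left out 1 array (limma adjusted p of 0.12 to 0.311). The differences of the other 18 genes of this list lay between -0.15 and 0.17.

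**Figure D2:**
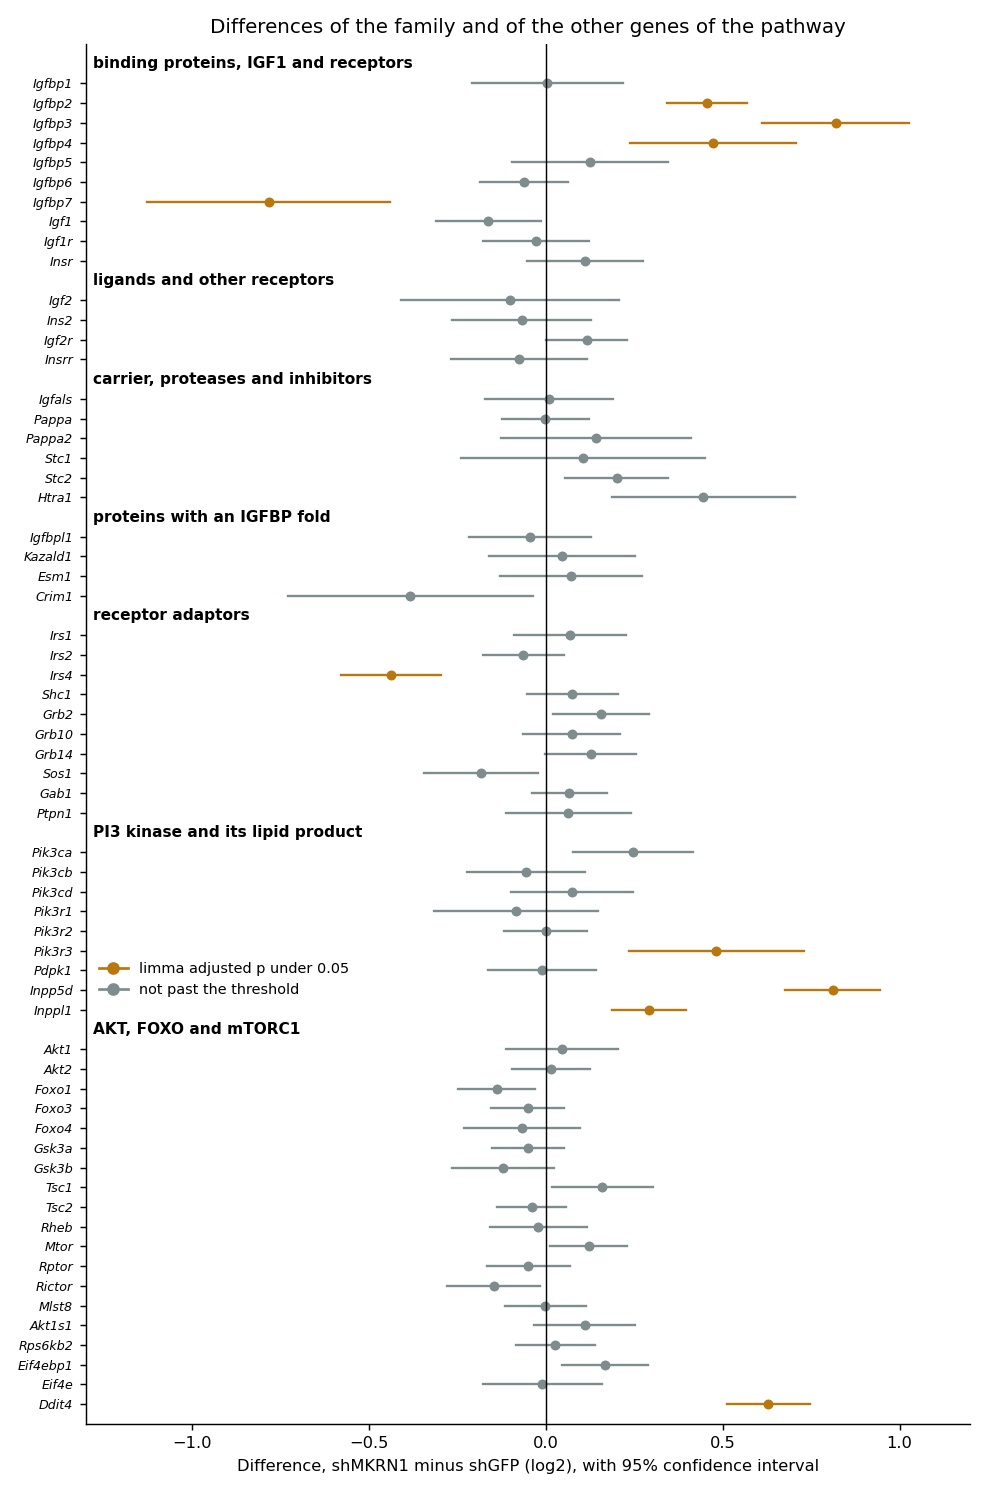
Log2 difference between shMKRN1 and shGFP with its 95% confidence interval for the 10 genes of the family and for the 52 other genes of the pathway, by list. Positive values are higher in shMKRN1, and the 4 family members and 5 pathway genes with a limma adjusted p under 0.05 are in orange.

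**Figure D3:**
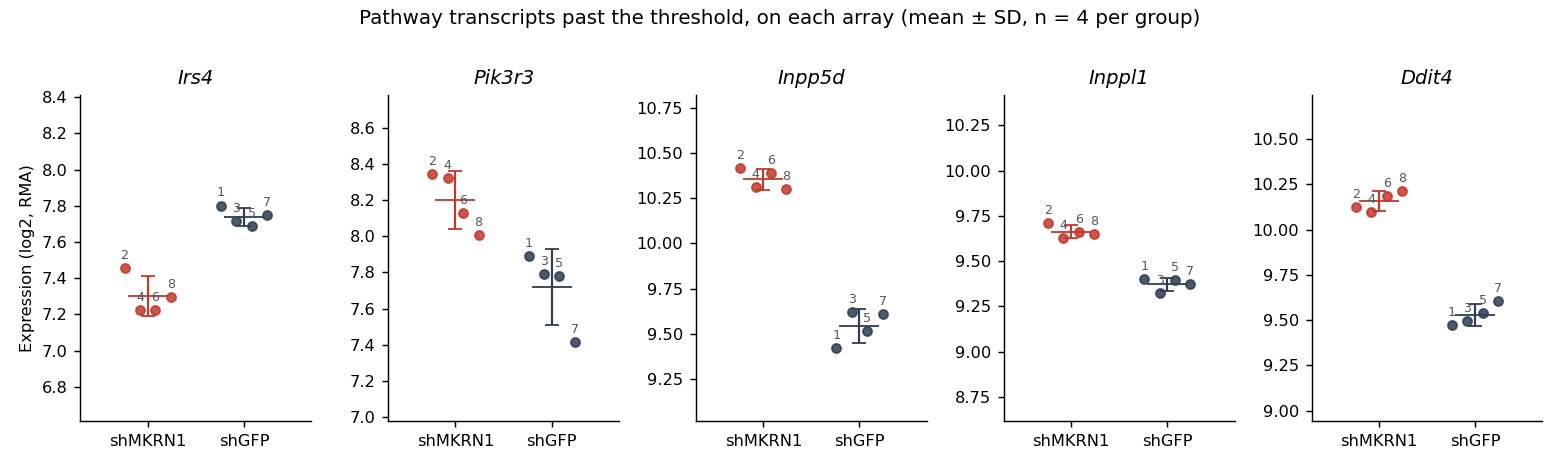
Log2 expression (RMA values) of the 5 pathway genes that passed the threshold, on each array, with shMKRN1 left of shGFP. Points are arrays labelled by number, and bars are the mean ± SD of 4 arrays. Irs4 is lower and Pik3r3, Inpp5d, Inppl1 and Ddit4 are higher in every shMKRN1 array.

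Single arrays mattered for some calls and not for others. Igfbp2, Igfbp3, Irs4, Inpp5d, Inppl1 and Ddit4 passed in all 8 fits that left out 1 array, with adjusted p-values of at most 0.0442 (Inppl1). Igfbp7 passed in 4 of these fits and Igfbp4 in 2.

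**Figure D4:**
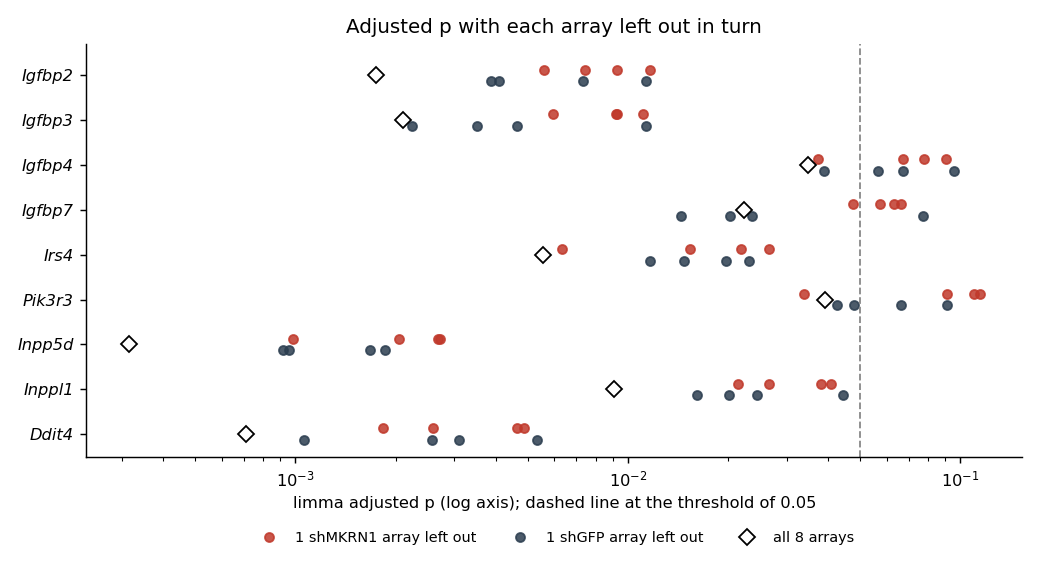
Adjusted p (limma, log axis) of the 9 called genes with all 8 arrays (diamonds) and with 1 shMKRN1 array (red) or 1 shGFP array (dark) left out. Igfbp4, Igfbp7 and Pik3r3 have points to the right of the threshold of 0.05, and the other 6 have none.

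For each of the 4 family members that passed, the 5 genes with the most similar profile were found by the root mean square difference of centred log2 values over the 8 arrays, among genes above the median level. Closest to Igfbp2 were Gfra1, a receptor gene for glial cell line-derived neurotrophic factor (difference of 0.031), Mfsd12, Cars, Rnf157 and Ooep, an oocyte-expressed gene (0.038). Closest to Igfbp3 were Prtg, a gene of the embryonic surface protein protogenin (0.087), Wnt8a, the glypican gene Gpc3, the small nucleolar RNA gene Snora44 and the lipoxygenase gene Alox15 (0.12). All 10 of these were higher in shMKRN1, with limma adjusted p-values between 0.00154 and 0.00635.

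Closest to Igfbp4 were Pik3r3 (0.074), described above, Rhbdd1, a rhomboid protease gene, the stress gene Gadd45b, Lhfpl2 and Glipr2 (0.088). Of these 5, Lhfpl2 did not pass the threshold (limma adjusted p = 0.119). The genes nearest to Igfbp7 were farther from it than those of the other 3 members: Crct1 (0.13), Timp3, an inhibitor gene of metalloproteinases (0.14), the matrix glycoprotein gene Thbs1 (0.16), Lce1h (0.17) and the BMP receptor gene Bmpr2 (0.17). All 5 were lower in shMKRN1, by 0.60 to 1.09 on the log2 scale. Within shGFP, all 5 were highest in shGFP 1, as Igfbp7 was. The search picks genes for such shared values on single arrays, so nothing is read from this. Of the genes named with Igfbp4 and Igfbp7, some calls rested on single arrays. That of Rhbdd1 was lost without shMKRN1 2, 4 or 6 or shGFP 3, and that of Gadd45b also without shGFP 5 (adjusted p up to 0.0608 and 0.0755). Those of Timp3 and Thbs1 were lost without shMKRN1 4, 6 or 8 or shGFP 3, and that of Thbs1 also without shGFP 1 (up to 0.102 and 0.11). Those of Crct1 and Bmpr2 were lost without shMKRN1 6, and that of Bmpr2 also without shGFP 3 (up to 0.0544 and 0.0585). The likeness was measured on the same 8 arrays as the differences, so genes with a group difference of the same size come first. It was not scaled to the spread of each gene. A member with a wide spread, as Igfbp7 has, can therefore have farther neighbours for that reason alone.

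**Figure D5:**
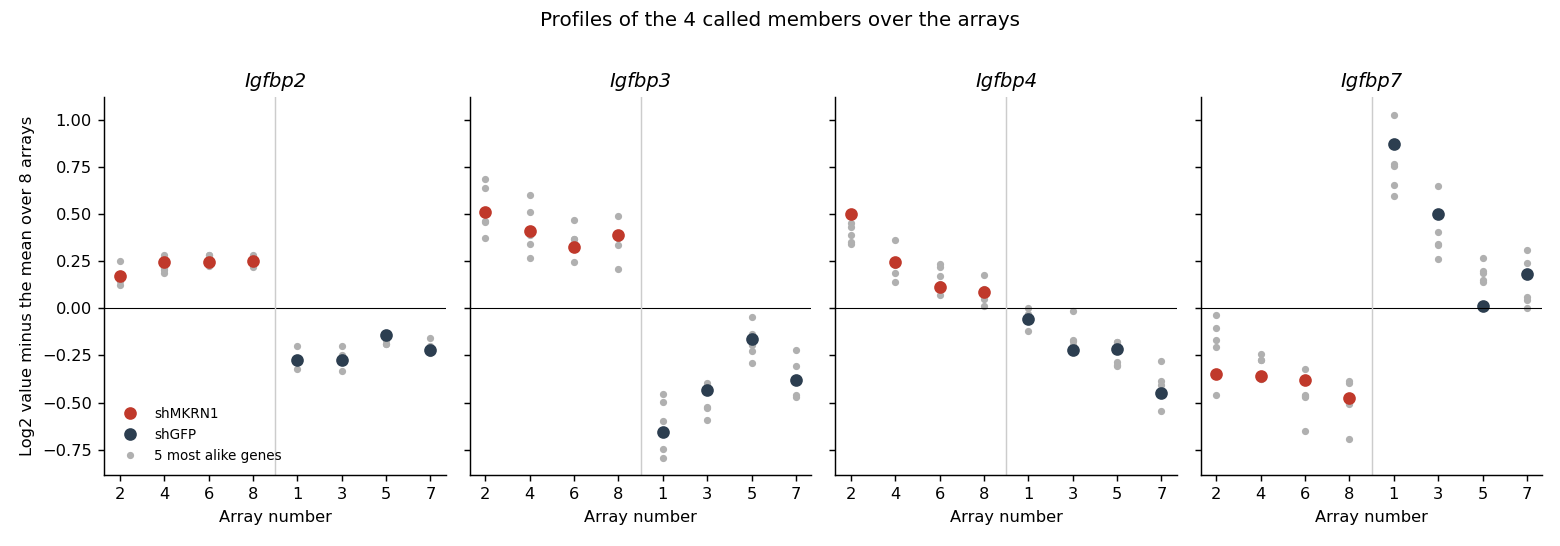
Log2 values minus the gene's mean over 8 arrays, for Igfbp2, Igfbp3, Igfbp4 and Igfbp7 (coloured) and the 5 genes most like each (grey). Arrays of shMKRN1 stand left of those of shGFP. Igfbp7 has the widest spread within shGFP.

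Several binding proteins are known products of fibroblasts, endothelium and endoderm, so markers of these cells were read on the same arrays. The mean log2 value of 14 fibroblast markers was 7.61 to 7.84 in shMKRN1, against 7.59 to 7.73 in shGFP. Of these 14 genes, 11 lay above 6.50. The matrix gene Lum and the surface protease gene Fap lay far below that level (3.78 and 4.16 in shMKRN1, 3.80 and 4.12 in shGFP). Past the threshold were 2, both higher, beside 3.66% of all genes higher. These were Col1a1 (log2 difference 0.37, limma adjusted p = 0.0486) and Pdgfrb (0.35, limma adjusted p = 0.0342). The 14 differences ranged from -0.28 (Tagln) to 0.47 (Cd44), with a median of 0.05, and 9 were positive. The mean log2 value of 14 primitive and parietal endoderm markers was 7.91 to 8.08 in shMKRN1, against 7.96 to 8.11 in shGFP, with 12 above 6.50 and none past the threshold by limma (2 had an unadjusted p under 0.05, beside 19.5% of all genes). The mean of 9 endothelial markers was 7.09 to 7.26 in shMKRN1, against 7.09 to 7.17 in shGFP, with 8 above 6.50. Of these 9, 1 passed, Tek, which was higher (log2 difference 0.29), beside 4.49% of all genes. Cdh5 went the other way, with groups that did not overlap (log2 difference -0.24, limma adjusted p = 0.0826). Of the 9 differences, 6 were positive. The calls of Col1a1, Pdgfrb and Tek each held in 1 of the 8 fits that left out 1 array, that without shMKRN1 8 for Tek and that without shGFP 7 for Col1a1 and Pdgfrb. The groups overlapped for these 3 lists. The mean of 9 neural markers was 7.87 to 7.99 in shMKRN1, against 8.11 to 8.18 in shGFP, so that it was lower in every shMKRN1 array. Taken singly, 3 of the 9 markers (Neurod1, Fabp7 and Pax6) were lower in every shMKRN1 array, beside 699 of 19937 genes. That share is of single genes, and none was computed for means of 9 genes. Of the 9 differences, 1 was positive, with a median of -0.17. Of these 9 markers, 8 lay above 6.50 and 1 passed, beside 4.49% of all genes. This was Neurod1, which was lower (log2 difference -0.67, SE 0.086, limma adjusted p = 0.00381). The part of these cell types in the differences of the binding proteins was not tested.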

How the data were processed

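RNA of R1 embryonic stem cells was hybridised to an Affymetrix gene array, 1 sample per array, 4 shMKRN1 and 4 shGFP. The authors deposited log2 values made by RMA (background correction, quantile normalization and probe summary), per the submitters' processing notes, with no version known here. RMA compresses differences of genes near background. Of 34760 probe sets, 21640 name 1 gene in the platform annotation, 1321 name several and 11799 none; for the 954 genes with several, the probe set with the highest mean was kept. The 10 members, the lists and the arrays left out as a pair were chosen with earlier results of these data known.

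Groups were compared with limma 3.58.1 in R 4.3.3 (lmFit and eBayes, two-sided, 6 residual degrees of freedom), adjusted by Benjamini-Hochberg over 19937 genes, with a threshold of 0.05, and intervals are 95%. The number of arrays limits the precision. The code was tested on simulated data. Named were the 10 members, Mkrn1, up to 4 passing genes of each pathway list and the 5 nearest profiles of each passing member (genes above the median level, predicted genes passed over); other genes named were chosen after their values were seen. Alternatives were quantile normalization, median centring, filters at the median level of all genes and at the level of silent receptor genes, the fit and adjustment over every probe set, the mean of a gene's probe sets, eBayes with trend and robust, array weights, leaving out each array, leaving out shMKRN1 8 with shGFP 7, and, chosen after seeing the data, a block of neighbouring array numbers. Some listed genes are not reported here.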

Additional observations from a re-analysis of the deposited data

Results flagged for a closer look

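In 98 groups of 4 arrays (49 named genes), 4 groups held an array whose gap to the nearest other array was large against the group's range (Dixon's 95% limit), and chance alone gives about 1 in 20. Igfbp2 in shMKRN1 2 was 10.52, against 10.59 to 10.60 on the other shMKRN1 arrays, a small distance on the log2 scale. Gfra1, the gene most like Igfbp2, was 8.71 in shMKRN1 2, against 8.85 to 8.86 on the other shMKRN1 arrays. Glipr2, 1 of the genes most like Igfbp4, was 9.77 in shMKRN1 2, against 9.45 to 9.50. Igfbp5 in shMKRN1 6 was 6.28, against 6.67 to 6.74, and this gene lay near the level of silent genes in both groups.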

How the results depend on the processing

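Igfbp2 and Igfbp3 kept their direction and passed the threshold under all 9 other settings (log2 differences of 0.43 to 0.48 and 0.80 to 0.84). They also did so in all 8 fits without 1 array (0.44 to 0.48 and 0.74 to 0.90). The 9 settings include the fit without shMKRN1 8 and shGFP 7, a pair chosen with earlier results known. They do not include the block of neighbouring array numbers, given at the end. Igfbp4 and Igfbp7 passed under 8 of 9 other settings and were lost when the model was fitted and adjusted over every probe set (0.47, adjusted p = 0.0856, and -0.78, adjusted p = 0.0636), which changed both the moderated errors and the number of tests; without 1 array they ranged from 0.38 to 0.53 and from -0.91 to -0.62. Pik3r3 (adjusted p = 0.0934), Rhbdd1 (0.0508), Gadd45b (0.0625), Timp3 (0.0827), Thbs1 (0.089), Nanog (0.0574), Col1a1 (0.106), Pdgfrb (0.0825) and Tek (0.0784) were lost there too. Col1a1 was also lost after quantile normalization (0.0857) and Pdgfrb without shMKRN1 8 and shGFP 7 together (0.0634). Igfbp1, a gene at the level of silent genes, turned sign with array weights (-0.031) and without shMKRN1 8 and shGFP 7 together (-0.029), and ranged from -0.085 to 0.061 without 1 array. Igf1r turned sign with array weights (0.0049) and ranged from -0.067 to 0.018 without 1 array, and Igf2 from -0.19 to 0.028; the cause was not tested. The remaining members kept their direction. Of the 10 members, 2 passed when adjusted over every probe set and 2 to 4 without 1 array. Of the pathway genes, 9 of 41 passed among genes above the median level (beside 1595 of 9968 genes), 8 of 52 with trend and robust eBayes (7.77%), 11 of 52 with array weights (13.8%), and 4 to 6 without 1 array. Of all genes, 1595 passed among the 9968 above the median level, 1401 among the 14012 above the level of silent genes, 378 when adjusted over every probe set, 1549 with trend and robust eBayes and 2757 with array weights, beside 896; without 1 array the count was 309 (without shMKRN1 6) to 852. Array weights lowered the share of higher among called genes to 70.1%, beside 81.4%. The filters removed Igfbp1 (both), and Igfbp5, Igfbp6, Igf1, Irs4 and Pdgfrb (median level), which therefore have no value there. Fits without 1 array have fewer samples and fewer degrees of freedom. The groups share no replicate number, and the labels do not pair the arrays. In a fit chosen after seeing the data, with neighbouring array numbers as a replicate block (2 with 1, 4 with 3, 6 with 5, 8 with 7), 4 members, 8 of 52 pathway genes and 1446 of all genes passed (7.25%), no member changed its call, and Lhfpl2 (adjusted p = 0.0192), Htra1 (0.00679), Crim1 (0.0271) and Pik3ca (0.0478) passed. The deviations of these pairs from their group means correlated across genes at 0.13, -0.05, 0.26 and 0.64, and not every array correlated best with its neighbour. Signal close to background limits Igfbp1, Igfbp5, Igfbp6 and Igf1.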
